A study of Mus musculus with 8 samples.

Results

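The genes described here are 10 genes of the response to endoplasmic reticulum (ER) stress: Hspa5, Sdf2l1, Dnajb9, Herpud1, Xbp1, Atf4, Ddit3, Trib3, Chac1 and Asns. They were chosen by name and make up 10 of the 25965 genes in the deposited table. All 10 passed the filter on low values (mean level over the libraries of 0.05 or more on the RPKM scale, reads divided by gene length and library total), as did 15627 genes in all. Total RNA from whole mouse lungs was sequenced at a late embryonic stage (E18.5) and shortly after birth (P1.5). At each stage, Wfdc2+/+ control lungs were compared with Wfdc2GFP/GFP knockout lungs, with 2 libraries from separate animals in each of the 4 groups. In Wfdc2GFP/GFP mice, both copies of Wfdc2, the gene of a secreted protease inhibitor made by airway and alveolar epithelium, were disrupted by a knocked-in GFP sequence that removes coding exons. The allele was made in TT2 embryonic stem cells and is present in every cell of the animal, and the neo cassette was removed by crossing to CAG-Cre mice. Because the samples were whole lungs, fewer cells of a type and less RNA per cell cannot be told apart.

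The ER is where secreted and membrane proteins are folded, and type II alveolar and club cells of the lung secrete large amounts of protein. When unfolded protein builds up, the sensors IRE1, PERK and ATF6 start the unfolded protein response. IRE1 splices Xbp1 mRNA, and the spliced factor, with ATF6, drives chaperones such as BiP (from Hspa5) and genes for the disposal of misfolded protein. PERK phosphorylates eIF2alpha, which favours translation of ATF4, and ATF4 drives Ddit3 (CHOP), Trib3, Chac1 and Asns. ATF4 is also used by the response to amino acid shortage, so that branch is not particular to the ER. The values are per gene, so they do not show splicing of Xbp1 or translation of Atf4.

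Both branches act through short promoter elements, and the windows of RefSeq promoters (GRCm38.p6, 300 bases, from 250 before to 50 after the start site) of all 10 genes were searched on both strands for 4 of them. The ER stress element, CCAAT and CCACG with 9 bases between, was found in 0.119% of 32817 promoters and in 1 of the 10 genes, Hspa5, from -65 to -47 of the start site. The second ER stress element, ATTGG and CCACG with 1 base between, stood in 0.0366% of promoters and in 1 of the 10, Herpud1, from -52 to -42. The ATF4 element TGATGNAA stood in 3.97% of promoters and in 4 of the 10, namely Chac1, Trib3, Asns and Herpud1. The element TGACGTGG, bound by XBP1 and ATF6, stood in 0.676% of promoters and in 0 of the 10. The 250 bases before the start are shown for Hspa5, with the chaperone element, for Chac1, with the ATF4 element, and for Herpud1, with one of each kind. They cover chr2:34771840-34772089, chr2:119350992-119351241 and chr8:94386179-94386428, all on the plus strand. Capitals mark the matched letters, and the ATF4 element of Chac1 and Herpud1 reads on the opposite strand.
Hspa5: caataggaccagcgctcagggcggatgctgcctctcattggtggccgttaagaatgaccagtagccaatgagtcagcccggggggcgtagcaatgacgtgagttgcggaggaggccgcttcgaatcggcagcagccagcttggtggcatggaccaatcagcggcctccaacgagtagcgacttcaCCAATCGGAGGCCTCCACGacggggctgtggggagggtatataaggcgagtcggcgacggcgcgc
Chac1: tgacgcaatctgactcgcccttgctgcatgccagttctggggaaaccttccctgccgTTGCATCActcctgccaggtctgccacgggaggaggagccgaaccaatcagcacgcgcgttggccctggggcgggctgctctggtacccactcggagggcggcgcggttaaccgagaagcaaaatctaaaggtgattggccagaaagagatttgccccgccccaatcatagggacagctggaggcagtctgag
Herpud1: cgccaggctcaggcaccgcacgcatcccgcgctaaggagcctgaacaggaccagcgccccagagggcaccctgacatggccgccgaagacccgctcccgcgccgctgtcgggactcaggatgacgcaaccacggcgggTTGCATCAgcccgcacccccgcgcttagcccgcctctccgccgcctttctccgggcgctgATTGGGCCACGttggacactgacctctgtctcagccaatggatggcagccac
The matched letters in the other promoters were TTACATCA in Trib3, from 15 to 22 after the start, and TGATGAAA in Asns, from -23 to -16.

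The label of the knockout was checked first. Wfdc2 had 8038 and 8791 reads in E18.5 Wfdc2+/+ libraries and 32845 and 10212 in P1.5 Wfdc2+/+ libraries. It had 0 and 1 reads in E18.5 and 12 and 0 in P1.5 Wfdc2GFP/GFP libraries. Lung markers, among them Sftpc, Ager and Scgb1a1, were present in every library. The library totals by which the deposited values were scaled, recovered from the steps of those values, were 34429560 and 31169157 in E18.5 Wfdc2+/+, 37209332 and 29246202 in E18.5 Wfdc2GFP/GFP, 21714474 and 19457647 in P1.5 Wfdc2+/+, and 23163505 and 29257003 in P1.5 Wfdc2GFP/GFP. These totals need not equal the reads sequenced or mapped. A count of 3 reads, taken as the limit of detection, is 0.0806 to 0.154 RPM (reads scaled to the library total), and every one of the 10 genes was above it in every library. The sex of the animals was split within each group, as read from a female and a male gene. In replicate 1 of the groups Xist had 14602, 90980, 4246 and 4121 reads and Ddx3y 0 to 3, whereas replicate 2 had 1 to 13 reads of Xist and 972 to 2175 of Ddx3y (groups in the order of the totals). Sex was thus balanced between the groups, and the spread within each group includes it. Blocking on replicate number, and so also on sex, called 0 of the 10 genes in any comparison. Some libraries stood apart. Over all genes tested, the median log2 RPKM was lowest, at -0.96, in replicate 1 of P1.5 Wfdc2+/+ and highest, at 0.02, in replicate 1 of E18.5 Wfdc2GFP/GFP, with no scaling applied beyond the library totals. Among the P1.5 libraries, Wfdc2+/+ replicate 2 was the one apart. Its median was -0.22, against -0.96 in replicate 1 and -0.95 and -0.63 in Wfdc2GFP/GFP. The summed level of 4 fibroblast markers in it was 3626 RPM, against 696 RPM in replicate 1 and 876 and 1266 RPM in Wfdc2GFP/GFP. Its type II alveolar markers summed to 29815 RPM, against 57296 RPM in replicate 1 and 69687 and 51745 RPM in Wfdc2GFP/GFP. In E18.5 Wfdc2GFP/GFP replicate 1, 7 type II alveolar markers summed to 9448 RPM, against 23839 RPM in replicate 2.

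The 10 genes spanned a wide range of levels. Per kilobase of the gene's whole span, which is the scale of the deposited values, the mean over the 8 libraries fell in the order Hspa5 (125 RPKM), Atf4 (83.9), Xbp1 (27.1), Herpud1 (13.0), Sdf2l1 (6.78), Dnajb9 (6.09), Ddit3 (3.43), Trib3 (1.33), Asns (0.845) and Chac1 (0.540). Dividing by exon length in place of the span put Herpud1 (49.8 RPM per exon kilobase) above Xbp1 (43.6), Ddit3 (11.0) above Dnajb9 (9.97), and Asns (5.59) above Trib3 (4.15). Hspa5 stayed highest at 135 and Chac1 lowest at 1.04. Chac1 rested on the fewest reads, 10 to 117 per library, and also had the widest range, 3.64 on the log2 scale between its lowest and highest library. Herpud1 had the narrowest, 0.90.

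**Figure D1:**
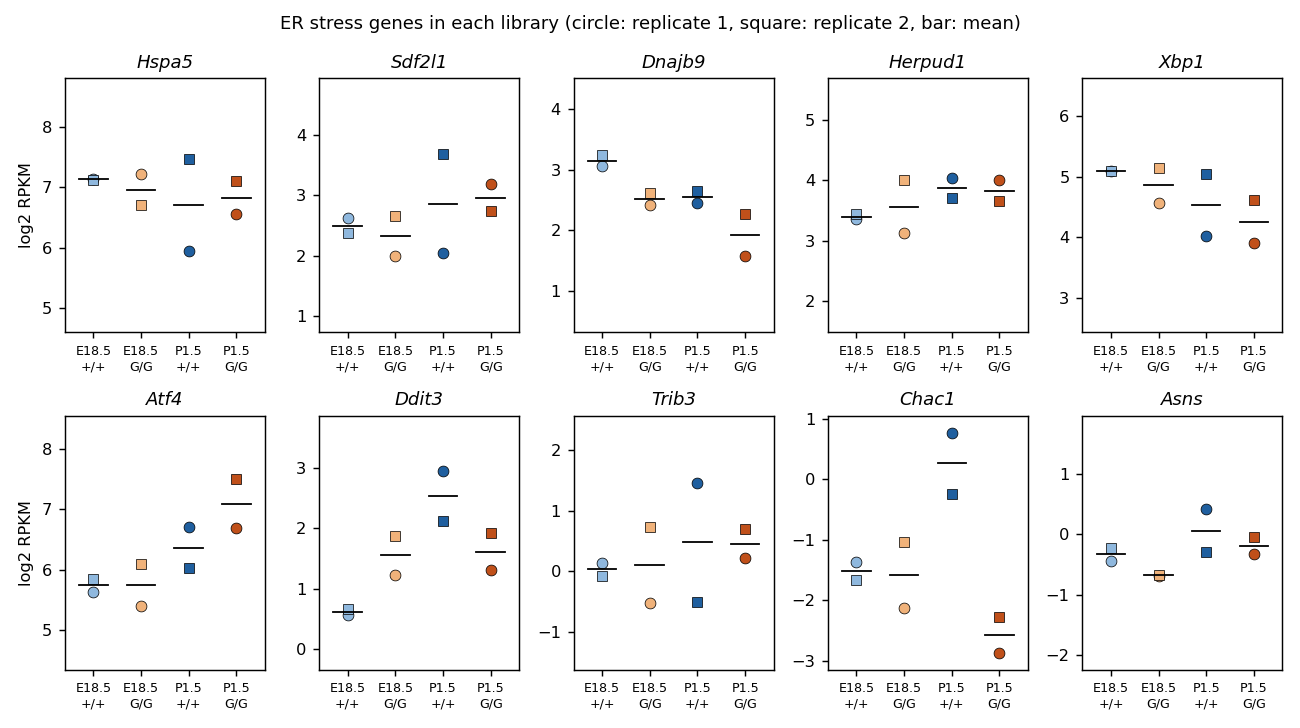
Level of each of the 10 genes as log2 RPKM (vertical axis, of equal length in every panel) in each library, by stage and genotype, where G/G is Wfdc2GFP/GFP. Circles are replicate 1, squares replicate 2 and bars the mean of the 2 libraries. The P1.5 Wfdc2+/+ libraries of Hspa5, Sdf2l1, Trib3, Xbp1 and Chac1 lie over 1 log2 unit from each other, and for Chac1 both lie above both P1.5 Wfdc2GFP/GFP libraries.

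In P1.5 lungs, which the study compared for the effect of losing Wfdc2 after birth, the chaperone genes Hspa5 and Sdf2l1 overlapped between the genotypes, and Chac1, Ddit3 and Dnajb9 were lower in both Wfdc2GFP/GFP libraries. None of the 10 genes passed the test: 0 had a limma adjusted p under 0.05, as did 0.0128% of the genes tested. With limma, 1 of the 10 (Chac1) had an unadjusted p under 0.05, against 10.9% of all genes, and limma's voom on the recovered reads also gave 0 and 1. In 3 of the 10 genes both Wfdc2GFP/GFP libraries were below both Wfdc2+/+ libraries, and in 0 both were above. Over all genes these arrangements made up 26.9% and 12.6%, so the share of the 10 genes that was lower was near that of genes at large. The median log2 fold change was -0.14 for the 10 genes and -0.20 for all genes, with 3 of the 10 positive and 7 negative, beside 38.8% of all genes that were positive.

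Chac1 (chr2:119351229-119354381, mm10) encodes an enzyme that degrades glutathione and is a target of ATF4 and CHOP. Its counts were 117 and 52 reads in P1.5 Wfdc2+/+ against 10 and 19 in P1.5 Wfdc2GFP/GFP, or 5.39 and 2.67 RPM against 0.432 and 0.649 RPM. The log2 RPKM was 0.27 ± 0.72 (SD, n = 2) in Wfdc2+/+ and -2.57 ± 0.42 (SD, n = 2) in Wfdc2GFP/GFP, and both knockout libraries were also the lowest of all 8. The log2 fold change was -2.84 ± 0.53 (SE, 95% interval -4.08 to -1.61), or 7.17-fold lower, with a limma adjusted p = 0.201. Adding 1 RPKM before the log, which exceeds the level of Chac1 in most libraries, left -0.93 (limma adjusted p = 0.239). Markers of other cells differed between the same libraries. The 3 hepatocyte markers (Alb, Apoa1, Ttr) summed to 7.05 and 69.1 RPM in P1.5 Wfdc2+/+ and to 1.21 and 1.88 RPM in Wfdc2GFP/GFP, with Apoa1 or Alb the most abundant in each and none at 0 reads. All 3 had negative log2 fold changes, Apoa1 (-4.20) without overlap and Alb (-2.57) and Ttr (-2.97) with overlap. In the test 0 of 3 passed (limma adjusted p of at least 0.208). Ttr was at or under the limit of detection in P1.5 Wfdc2GFP/GFP replicate 1, so its value is not exact. The 4 fibroblast markers also had negative values, without overlap for Tcf21 (-1.29) and Pdgfra (-1.06) and with overlap for Col1a1 (-0.33) and Col1a2 (-0.42). They summed to 696 and 3626 RPM in Wfdc2+/+ and 876 and 1266 RPM in Wfdc2GFP/GFP, with Col1a2 the most abundant in each library. The immediate early genes Fos (-1.53, without overlap), Egr1 (-0.71) and Jun (-0.15) summed to 158 and 238 RPM in Wfdc2+/+ and 115 and 176 RPM in Wfdc2GFP/GFP, with Jun the most abundant. All 3 club cell markers and both ciliated cell markers had negative values as well, without overlap for Cyp2f2 (-0.86) and Ccdc39 (-1.01). The type II markers were mixed, with 6 of 7 positive, Sftpa1 (1.73) and Lamp3 (0.57) higher without overlap and Abca3 (-0.48) lower. All 3 markers of cardiac muscle were positive, without overlap for Actc1 (1.89) and Nppa (2.99, 95% interval -6.26 to 12.2). In P1.5 Wfdc2+/+ replicate 2 Nppa was at or under the limit of detection, so its value is not exact. Cldn5 of endothelium (0.90), Aqp5 of type I cells (1.27) and Cd68 of leukocytes (0.72) were higher without overlap too, while the other markers of those 3 lists overlapped. Slc4a1 of erythroid cells (0.37) was also higher without overlap. None of these markers passed the limma test at P1.5, and their part in the difference of Chac1 was not tested.

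Ddit3 (chr10:127290774-127296288), which encodes CHOP, the transcription factor that links prolonged ER stress to cell death, was counted at 925 and 466 reads in P1.5 Wfdc2+/+ and at 317 and 609 in P1.5 Wfdc2GFP/GFP. On the RPM scale these were 42.6 and 23.9 against 13.7 and 20.8, so the genotypes did not overlap, although the nearest libraries were close. The log2 fold change was -0.92 ± 0.41 (SE, 95% interval -1.86 to 0.02, adjusted p = 0.467 by limma). It was -0.50 without P1.5 Wfdc2+/+ replicate 1 and -1.34 without replicate 2. Ddit3 overlaps Mars by 68 bases and Gm4189 by 15 bases on the opposite strand, and Herpud1 overlaps Gm15890 by 535 bases on the opposite strand. The study made its libraries with a directional kit, which keeps the strand of the RNA. The sources used here do not state whether strand was used in counting.

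Dnajb9 (chr12:44205897-44210068) encodes ERdj4, a co-chaperone of BiP that is induced through XBP1. Its levels were 22.7 and 26.0 RPM in P1.5 Wfdc2+/+ and 12.4 and 20.0 RPM in P1.5 Wfdc2GFP/GFP. The 2 genotypes were apart, with a log2 fold change of -0.62 ± 0.32 (SE, adjusted p = 0.531 by limma), which was -0.28 without Wfdc2GFP/GFP replicate 1 and -0.97 without replicate 2.

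The remaining 7 genes overlapped between genotypes at P1.5. Hspa5 (chr2:34771970-34776531), whose product BiP is the main ER chaperone and restrains the sensors, had 5.94 and 7.46 log2 RPKM in Wfdc2+/+ and 6.56 and 7.10 in Wfdc2GFP/GFP. Both knockout values lay between the control values, and the log2 fold change of 0.12 ± 0.52 (SE, adjusted p = 0.941 by limma) had a 95% interval of -1.08 to 1.33. Atf4 (chr15:80255184-80257540) had 6.70 and 6.02 log2 RPKM in Wfdc2+/+ and 6.69 and 7.50 in Wfdc2GFP/GFP, with a log2 fold change of 0.73 ± 0.43 (SE, adjusted p = 0.585 by limma). That value was 0.33 without Wfdc2GFP/GFP replicate 2 and 1.14 without replicate 1. Among its targets, Trib3, a pseudokinase induced by ATF4 and CHOP, was at -0.02 and Asns, asparagine synthetase, at -0.25 on the log2 fold change scale. Xbp1, Herpud1, which anchors the ER degradation complex, and Sdf2l1, an ER-resident partner of BiP, were at -0.28, -0.04 and 0.10.

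**Figure D2:**
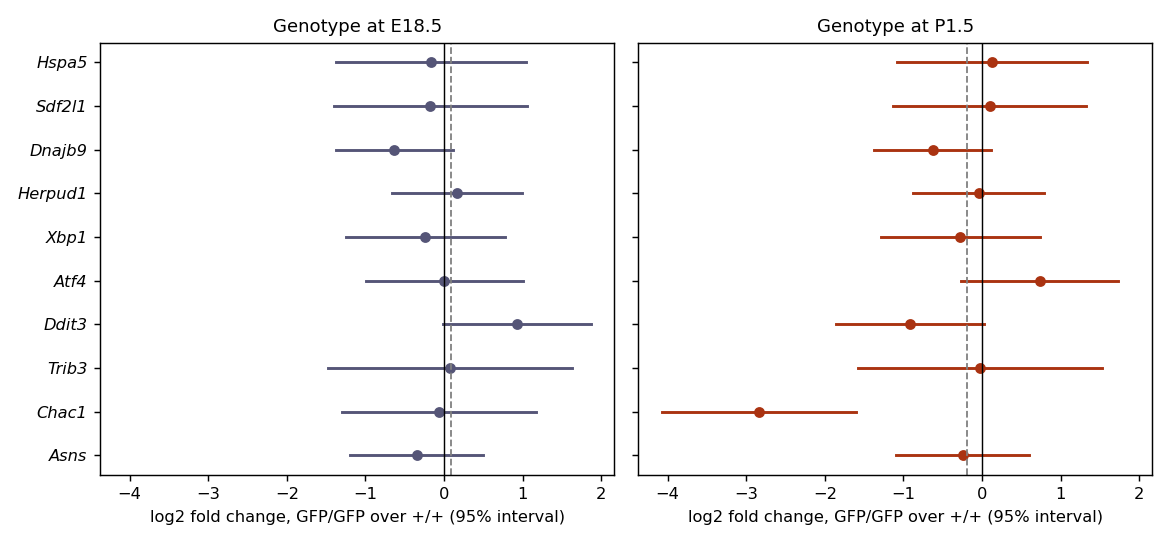
Log2 fold change of Wfdc2GFP/GFP over Wfdc2+/+ for each gene at E18.5 (left) and P1.5 (right), from limma, where points are estimates and lines their 95% intervals. The dashed line is the median of all genes tested, 0.09 at E18.5 and -0.20 at P1.5, and the interval of Chac1 at P1.5 (-4.08 to -1.61) is the one that does not reach 0.

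At E18.5, Ddit3 was higher in Wfdc2GFP/GFP lungs, and Dnajb9 and Asns were lower, each without overlap and each without passing the test. With limma, 0 of the 10 genes had an adjusted p under 0.05, against 0.0192% of all genes, and 0 had an unadjusted p under 0.05, against 4.37% of all genes. Voom also called 0. Groups apart made up 26.5% (higher) and 9.46% (lower) of all genes, and 1 and 2 of the 10. Ddit3 was counted at 283 and 273 reads in Wfdc2+/+ and at 481 and 592 in Wfdc2GFP/GFP, or 8.22 and 8.76 against 12.9 and 20.2 RPM. The control libraries were nearly equal and the knockout libraries were spread, with a log2 fold change of 0.93 ± 0.41 (SE, 95% interval -0.01 to 1.87, adjusted p = 0.9998 by limma), which was 0.61 without Wfdc2GFP/GFP replicate 2, 1.25 without replicate 1 and 0.64 with 1 RPKM added before the log.

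Dnajb9 stood at 34.7 and 39.7 RPM in E18.5 Wfdc2+/+ and at 22.3 and 25.7 RPM in E18.5 Wfdc2GFP/GFP, a log2 fold change of -0.63 ± 0.32 (SE, adjusted p = 0.9998 by limma). It was the only one of the 10 genes that was lower without overlap at both stages, an arrangement seen in 1.71% of all genes, and the difference between its genotype effects was 0.01 ± 0.46 (SE). Asns (chr6:7675169-7693254) was counted at 462 and 482 reads in Wfdc2+/+ and at 418 and 333 in Wfdc2GFP/GFP, with a log2 fold change of -0.35 ± 0.36 (SE), which was -0.15 with 1 RPKM added and -0.60 after quantile normalization. Hspa5, Sdf2l1, Herpud1, Xbp1, Atf4, Trib3 and Chac1 overlapped between genotypes, with log2 fold changes from -0.24 (Xbp1) to 0.17 (Herpud1). Hspa5 was at 7.13 and 7.13 log2 RPKM in Wfdc2+/+ and at 7.23 and 6.70 in Wfdc2GFP/GFP. Chac1 had 42 and 31 reads against 27 and 45, so the gene with the widest separation at P1.5 showed none at E18.5.

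Markers of other cells also differed between the E18.5 genotypes. All markers of club cells (3), type I cells (4), endothelium (4) and erythroid cells (3) had negative log2 fold changes, as did 6 of the 7 type II markers and 4 of the 5 leukocyte markers, while 59.2% of all genes were positive. Scgb1a1 (-2.26) and Cyp2f2 (-0.91) of club cells, Alas2 of erythroid cells (-1.33) and Lamp3 of type II cells (-0.85) were lower without overlap, as were Ptprc (-0.58), S100a8 (-0.44) and S100a9 (-0.90) of leukocytes and Kdr of endothelium (-0.29). The erythroid markers summed to 287 and 292 RPM in Wfdc2+/+ and to 129 and 142 RPM in Wfdc2GFP/GFP, with Alas2 the most abundant and none at 0 reads. The club cell markers summed to 2047 and 2705 RPM in Wfdc2+/+ and to 636 and 2332 RPM in Wfdc2GFP/GFP. The fibroblast markers overlapped, and all 3 cardiac muscle markers were positive, without overlap for Myh6 (1.27). Alb of hepatocytes (0.78) and the immediate early gene Egr1 (0.29) were higher without overlap, and Sdc1 of plasma cells (-0.44) was lower. None of the markers passed the limma test at E18.5, and their part in the values of Ddit3, Dnajb9 and Asns was not tested.

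The genotype effects of the 2 stages were compared by their difference (the interaction of genotype and stage). With limma, 0 of the 10 genes and 0 of all genes (0%) had an adjusted p under 0.05, voom also called 0 of the 10, and 2 of the 10 had an unadjusted p under 0.05, against 10.2% of all genes. The difference was -2.78 ± 0.75 (SE, adjusted p = 0.278 by limma) for Chac1 and -1.85 ± 0.57 (SE, adjusted p = 0.338 by limma) for Ddit3. With 1 RPKM added before the log these were -0.94 and -1.38. Ddit3 was higher in both knockout libraries at E18.5 and lower in both at P1.5, and such a reversal without overlap was found in 9.92% of all genes. For the other 8 genes the difference ran from -0.21 (Herpud1) to 0.73 (Atf4), beside a median of -0.33 for all genes. The value of Atf4 was 0.32 without P1.5 Wfdc2GFP/GFP replicate 2 and 1.13 without replicate 1 of that group.

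Across birth in Wfdc2+/+ lungs, Ddit3 and Chac1 stood higher at P1.5 than at E18.5, while Dnajb9 and Xbp1 stood lower. With limma, 0 of the 10 genes passed the test, as did 0.0576% of all genes, and 2 had an unadjusted p under 0.05, against 11.8% of all genes. Voom also called 0. Of the 10 genes, 4 were higher and 2 lower without overlap, and of all genes 27.4% and 28.2%. The median log2 change of the 10 was 0.42, against -0.15 for all genes. Ddit3 went from 8.22 and 8.76 RPM to 42.6 and 23.9 RPM (log2 fold change 1.91 ± 0.41, SE, adjusted p = 0.155 by limma), and Chac1 from 1.22 and 0.995 RPM to 5.39 and 2.67 RPM (log2 fold change 1.78 ± 0.53, SE, adjusted p = 0.300 by limma). With 1 RPKM added before the log the value of Chac1 was 0.73 and that of Ddit3 was 1.43. The outcome rested on 1 library. Without P1.5 Wfdc2+/+ replicate 2, Ddit3 (2.33, limma adjusted p = 0.0249) and Chac1 (2.29, limma adjusted p = 0.0413) passed, and the genes called among all genes went from 9 to 2166. Atf4 and Herpud1 were also apart, at 0.62 and 0.48, and without P1.5 Wfdc2+/+ replicate 1 these were 0.28 and 0.31, and without replicate 2 they were 0.96 and 0.64. Without replicate 1 Xbp1 went from -0.56 to -0.04, and without P1.5 Wfdc2+/+ replicate 2 to -1.08. Quantile normalization put Atf4 at 0.23 and Herpud1 at 0.26, and median centring put Xbp1 at -0.30 and Dnajb9, otherwise at -0.61, at -0.35.

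Markers of other cells differed across birth in Wfdc2+/+ too. The 3 hepatocyte markers were all positive and summed to 1.25 and 0.995 RPM at E18.5 and to 7.05 and 69.1 RPM at P1.5. Among them Apoa1 was counted at 3 and 6 reads at E18.5 and at 139 and 213 at P1.5 (log2 fold change 6.01, limma adjusted p = 0.0616), and Ttr at 0 and 1 reads and at 6 and 102. The immediate early genes Egr1 (2.01) and Fos (1.57) stood higher without overlap and Jun (0.12) overlapped. All 3 club cell markers were higher without overlap, Scgb1a1 by the most (3.31), and Ccdc39 of ciliated cells was lower (-1.61). Of the type II markers 3 of 7 were positive, and of the fibroblast markers 0 of 4, against 42.9% of all genes. Without overlap, Sftpc (1.23) and Napsa (0.82) of type II cells and Ager (1.03) and Aqp5 (1.26) of type I cells were higher, and Lamp3 of type II cells (-1.08) and Pdgfra of fibroblasts (-0.91) were lower. The endothelial markers were mixed, with Cldn5 (1.01) higher and Kdr (-1.15) lower without overlap, and so were those of cardiac muscle, with Myh6 (1.10) higher and Actc1 (-1.20) lower. Alas2 (-0.61) and Slc4a1 (-0.26) of erythroid cells and Sdc1 of plasma cells (-0.58) were lower without overlap. None of these markers passed the limma test in Wfdc2+/+, and their part in the values of Ddit3 and Chac1 was not tested.

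In Wfdc2GFP/GFP lungs across birth, Atf4, Sdf2l1 and Asns stood higher at P1.5 without overlap (log2 fold changes of 1.35, 0.64 and 0.49), and Chac1 and Dnajb9 stood lower. Trib3 (0.35) and Ddit3 (0.06) overlapped, and no test compared Atf4 with its targets. Here 4.55% of all genes passed the limma test and 0 of the 10 did, and 1 of the 10 had an unadjusted p under 0.05, against 35.6% of all genes. Voom also called 0 of the 10. The counts without overlap, 3 of the 10 higher and 2 lower, stand against 18.7% and 48.5% of all genes, and the median log2 change of the 10 was 0.16, against -0.46. Atf4 had 3686 and 4716 reads at E18.5 and 5634 and 12488 at P1.5, or 5.39 and 6.10 against 6.69 and 7.50 log2 RPKM. Its log2 fold change was 1.35 ± 0.43 (SE, adjusted p = 0.0790 by limma), and it was 0.57 after quantile normalization and 2.03 after median centring. Sdf2l1 was at 0.31 without E18.5 Wfdc2GFP/GFP replicate 1, at 0.97 without replicate 2 and at 1.31 after median centring. Asns was at 0.21 with 1 RPKM added and at 1.17 after median centring. Ddit3 was at 12.9 and 20.2 RPM at E18.5 and at 13.7 and 20.8 RPM at P1.5, a log2 fold change of 0.06 ± 0.41 (SE, 95% interval -0.879 to 1.002), which median centring put at 0.74. Chac1 went from 0.726 and 1.54 RPM to 0.432 and 0.649 RPM (log2 fold change -0.997 ± 0.53, SE, adjusted p = 0.210 by limma), the opposite sign to Wfdc2+/+. Opposite stage effects without overlap were found in 5.65% of all genes. Centring each library on its median brought the value of Chac1 in Wfdc2GFP/GFP to -0.32, adding 1 RPKM brought it to -0.21, and leaving out E18.5 Wfdc2GFP/GFP replicate 2 brought it to -0.45 and replicate 1 to -1.54. Dnajb9 was at -0.60, at -0.26 without P1.5 Wfdc2GFP/GFP replicate 1 and -0.95 without replicate 2, and turned to 0.071 with median centring.

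The summed level of leukocyte markers was higher at P1.5 in both genotypes, and S100a8 and S100a9, abundant in neutrophils, carried it. The 5 markers (Ptprc, Csf1r, Cd68, S100a8, S100a9) summed to 131 and 135 RPM in E18.5 Wfdc2+/+, 86.5 and 113 RPM in E18.5 Wfdc2GFP/GFP, 1592 and 555 RPM in P1.5 Wfdc2+/+, and 1184 and 801 RPM in P1.5 Wfdc2GFP/GFP. Csf1r was the most abundant at E18.5 and S100a8 or S100a9 at P1.5, and none was at 0 reads. In Wfdc2+/+ 0 of the 5 passed the limma test (smallest adjusted p = 0.0616), with S100a8 at 3.93 and S100a9 at 3.61 on the log2 scale. In Wfdc2GFP/GFP S100a8 (4.17, limma adjusted p = 0.0320) and S100a9 (4.85, limma adjusted p = 0.0189) rose. Cd68 stood higher without overlap in both genotypes, at 0.88 in Wfdc2+/+ and 1.54 in Wfdc2GFP/GFP. Csf1r overlapped between stages in both, at 0.22 and 0.15, and Ptprc overlapped in Wfdc2+/+ (-0.54) and was higher without overlap in Wfdc2GFP/GFP (0.47).

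Markers of lung cells differed across birth in Wfdc2GFP/GFP too. Scgb1a1 of club cells (log2 fold change 5.27, limma adjusted p = 0.0459), Sftpa1 of type II cells (2.50, limma adjusted p = 0.0459) and Aqp5 of type I cells (4.26, limma adjusted p = 0.04997) rose, while Pdgfra of fibroblasts (-2.22, limma adjusted p = 0.0461) and Ccdc39 of ciliated cells (-3.17, limma adjusted p = 0.0359) fell. The other markers of these lists did not pass the test and were mixed in places. Foxj1 of ciliated cells was at 0.15, Abca3 of type II cells at -0.83 without overlap, and Hopx of type I cells at -0.16. In all, 3 of 3 club, 6 of 7 type II, 3 of 4 type I, 0 of 4 fibroblast and 1 of 2 ciliated cell markers were positive, against 36.1% of all genes. All 7 calls, S100a8 and S100a9 included, were lost without E18.5 Wfdc2GFP/GFP replicate 1, without P1.5 Wfdc2GFP/GFP replicate 1 or without P1.5 Wfdc2GFP/GFP replicate 2, with limma adjusted p from 0.0747 to 0.233. With the replicate block 2 of the 7 passed, S100a8 (limma adjusted p = 0.0384) and S100a9 (limma adjusted p = 0.0197), and the same 2 passed with 1 RPKM added, without the filter and with voom. With 1 RPKM added, Ccdc39 was at -0.96 (limma adjusted p = 0.0671) and Pdgfra at -1.46 (limma adjusted p = 0.0662). Median centring put Pdgfra at -1.55 (limma adjusted p = 0.0525), and quantile normalization left 3 of the 7, S100a8, S100a9 and Ccdc39. Without E18.5 Wfdc2GFP/GFP replicate 1, Scgb1a1 was at 3.35 and Aqp5 at 2.58. Without replicate 2 of that group they were at 7.20 and 5.94.

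Of the other lists across birth in Wfdc2GFP/GFP, the endothelial markers were mixed, with Cldn5 (2.77, limma adjusted p = 0.0542) higher and Cdh5 (-0.97) and Kdr (-0.82) lower without overlap. Apoa1 of hepatocytes (2.91), Alas2 of erythroid cells (1.25), the immediate early gene Egr1 (1.01) and Sdc1 of plasma cells (0.87) were higher without overlap, and Alb of hepatocytes (-1.12) and Col2a1 of cartilage (-2.14) were lower. None of these passed the limma test. In E18.5 Wfdc2GFP/GFP replicate 1 Apoa1 was at or under the limit of detection, so its value is not exact. The 7 type II markers summed to 9448 and 23839 RPM at E18.5 and 69687 and 51745 RPM at P1.5, with Sftpc the most abundant and none at 0 reads. The 3 club cell markers summed to 636 and 2332 RPM at E18.5, led by Scgb3a2, and to 9424 and 8504 RPM at P1.5, led by Scgb1a1. The part of any of these markers in the values of Ddit3, Chac1 and Atf4 was not tested.

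Plasma cells, in which Xbp1 and Hspa5 are abundant, were checked with a pair of markers. Igj had 0 to 13 reads per library. Sdc1, which epithelium makes as well, ran from 186 to 500 RPM over the libraries, with 186 and 306 RPM in P1.5 Wfdc2+/+ and 462 and 500 RPM in P1.5 Wfdc2GFP/GFP (log2 fold change 1.01 ± 0.34, SE, adjusted p = 0.359 by limma).

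**Figure D3:**
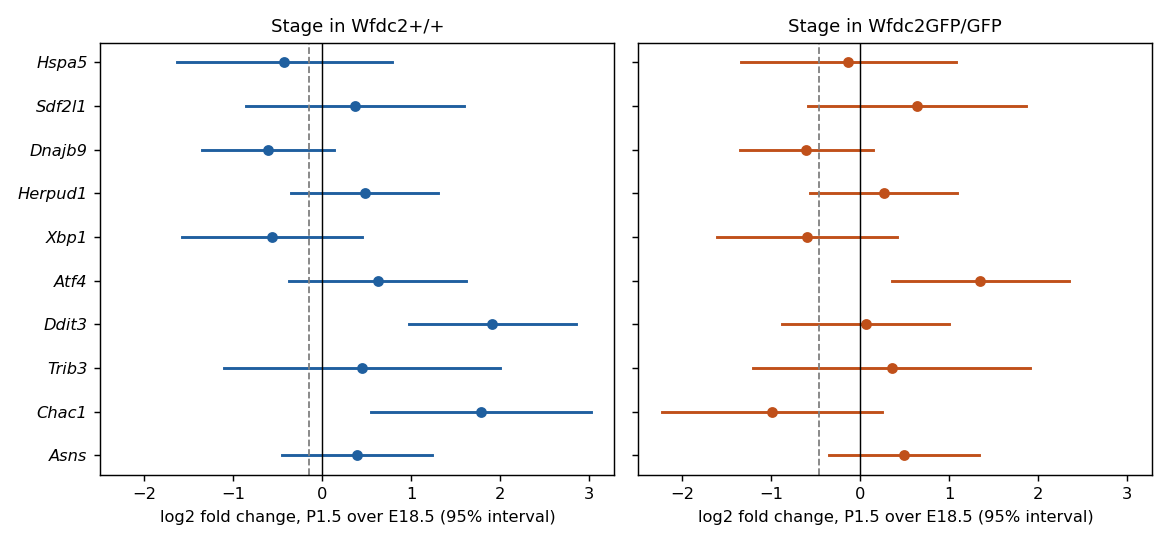
Log2 fold change of P1.5 over E18.5 for each gene in Wfdc2+/+ (left) and Wfdc2GFP/GFP (right), from limma, with 95% intervals as lines. The dashed line is the median of all genes tested (-0.15 and -0.46), and Ddit3 and Chac1 lie to the right of 0 in Wfdc2+/+ (1.91 and 1.78) but near or left of it in Wfdc2GFP/GFP (0.06 and -0.997).

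The wider pathway gave 105 genes in 7 lists, without the 10 above, of which 104 were in the table and 101 passed the filter. In the genotype comparisons and their difference, 0 of the 101 passed the limma test. At P1.5, 53 of the 101 had a positive and 48 a negative log2 fold change, with a median of 0.07 against -0.20 for all genes, of which 38.8% were positive. The signs of the lists that follow stand beside that same share. In each list the pair of genes of highest mean RPM is named, an order by reads that is not per length. At an unadjusted p under 0.05 limma had 0 higher and 4 lower at P1.5, 1 higher and 0 lower at E18.5, and 1 higher and 4 lower for the difference. Among all 15627 genes limma had 564 higher and 1146 lower at P1.5, 590 and 93 at E18.5, and 340 and 1259 for the difference at that level, so nothing is read from these counts. The genes are named after their values were seen. At P1.5 they were Cebpg (log2 fold change -2.32), Cth (-1.98), Derl3 (-2.63) and Srp54a (-1.79), at E18.5 Slc7a3 (2.85), and for the difference Sec61b (1.37), Cebpg (-2.35), Cth (-1.88), Derl3 (-2.89) and Slc7a3 (-4.37). The smallest limma adjusted p among the 101 was 0.262 at P1.5 and 0.215 for the difference. The 15 genes of ER translocation and signal peptide processing had a median of 0.38 at P1.5, with 11 positive and 4 negative. Ssr2 and Ssr3 of the translocon-associated complex were at 0.54 and 0.59 (limma adjusted p = 0.597 and 0.715). The 20 ER chaperones and folding enzymes had a median of 0.16, with 14 positive and 6 negative. Hsp90b1 (GRP94) was at 0.15 and P4hb, a protein disulfide isomerase, at 0.44. The 13 genes of ER-associated degradation had a median of 0.13, with 8 positive and 5 negative, and Vcp, the ATPase that extracts proteins from the ER, and Os9, a lectin, were at 0.23 and 0.13.

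The sensors and eIF2alpha kinases had a lower median at P1.5, -0.30 over 9 genes, with 1 positive (Eif2ak3, which encodes PERK, at 0.23) and 8 negative. Mbtps1, the protease that cuts ATF6, was at -0.57 and Atf6 at -0.01. The 16 genes of the PERK-ATF4 response had a median of -0.17, with 5 positive and 11 negative. Nupr1, a stress-induced chromatin protein, ranged from 26.9 to 649 RPM over the 8 libraries, highest in P1.5 Wfdc2+/+ replicate 1, and was at -0.17 between genotypes at P1.5. Vldlr, next by mean RPM in that list, was at -0.54, lower without overlap. The 16 genes of amino acid synthesis and transport had a median of -0.09, with 8 positive and 8 negative, and the transporters Slc38a2 and Slc1a5 were at -0.50 and 0.13. The 12 cytosolic aminoacyl-tRNA synthetases had a median of 0.02, and Sars and Eprs were at 0.08 and 0.07.

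Across birth, 0 of the 101 genes passed in Wfdc2+/+. In Wfdc2GFP/GFP 4 of the 101 fell and 0 rose at a limma adjusted p under 0.05. Of all 15627 genes, 459 (2.94%) fell and 252 rose, so no lean of the pathway is read from these counts. Cth, which makes cysteine, fell from 826 and 510 reads to 44 and 110 reads (log2 fold change -2.88, limma adjusted p = 0.0341). Shmt2, of mitochondrial serine and glycine metabolism, fell as well (log2 fold change -1.44, limma adjusted p = 0.0427). Vldlr, a lipoprotein receptor induced by ATF4, fell by 1.76 on the log2 scale (limma adjusted p = 0.0447). Srp54a, of the signal recognition particle, fell by 3.22 (limma adjusted p = 0.0459), on 283 and 144 reads against 21 and 14. It has near-identical copies, among which the counting could have divided reads. With 1 RPKM added before the log, Srp54a was at -0.30 (limma adjusted p = 0.0679), Cth at -0.59 (limma adjusted p = 0.0507) and Vldlr at -1.26 (limma adjusted p = 0.0577), so these calls ended, and that of Srp54a also ended with 0.1 RPKM added (-1.48, limma adjusted p = 0.0506). Median centring ended the call of Shmt2 (-0.76, limma adjusted p = 0.183), and quantile normalization those of Cth (limma adjusted p = 0.0627) and Vldlr (limma adjusted p = 0.0508). Without the filter on low values 1 of the 4 (Cth) passed. All 4 had the same sign in Wfdc2+/+, from -1.98 to -0.78, without passing there. All 4 calls were lost without E18.5 Wfdc2GFP/GFP replicate 1, without P1.5 Wfdc2GFP/GFP replicate 1 or without P1.5 Wfdc2GFP/GFP replicate 2 (limma adjusted p from 0.0878 to 0.244) and with the replicate block (0.0598 to 0.0663). With voom, 1 of the 4 (Cth) passed.

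**Figure D4:**
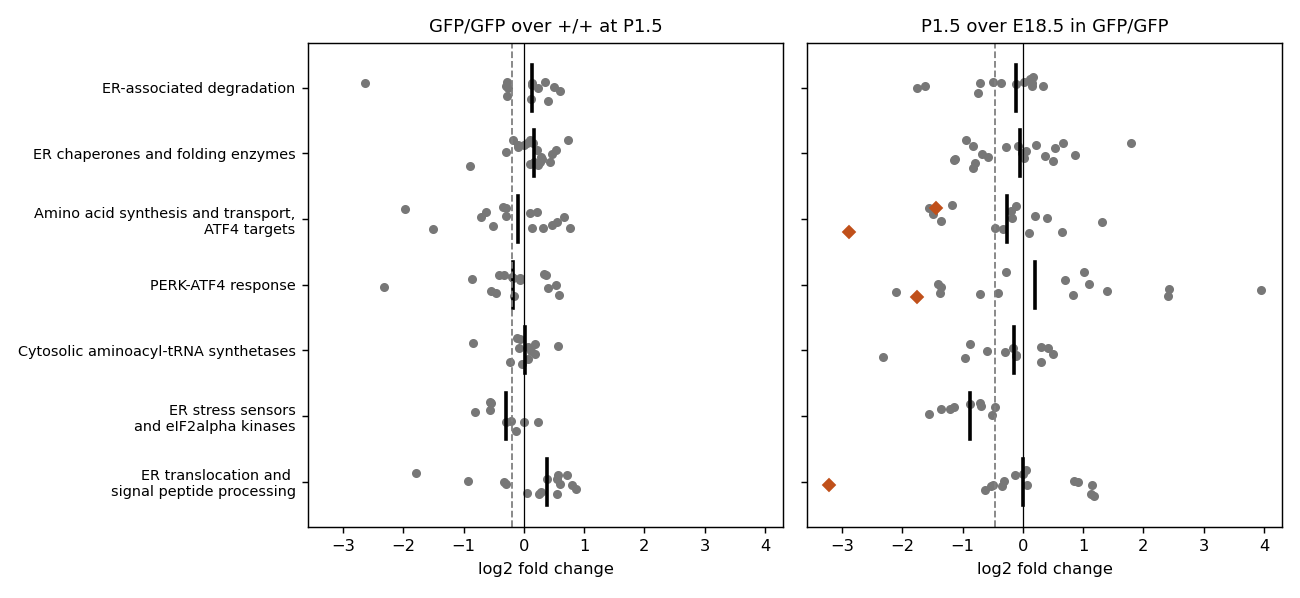
Log2 fold change of each gene of the 7 pathway lists (rows) for Wfdc2GFP/GFP over Wfdc2+/+ at P1.5 (left) and P1.5 over E18.5 in Wfdc2GFP/GFP (right). Grey circles did not pass the limma test, orange diamonds did (4 genes, all lower, on the right), black bars are list medians, and the dashed line is the median of all genes tested.

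Across the 8 libraries the pattern of Hspa5 was nearest to that of Heg1, Cgnl1, Atxn7l3b, Tek and Rnf144a, with root-mean-square differences of 0.117 to 0.138 in centred log2 RPKM among the 9421 genes whose mean reached 0.5 RPKM. The nearest of the other ER stress genes was Xbp1, at rank 1650 (0.370). The pattern of Ddit3 was nearest to Rhebl1, Phf1, Abtb1, Ldb1 and Sdf2 (0.238 to 0.280), and the nearest of the other ER stress genes was Herpud1, at rank 692 (0.584).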

How the data were processed

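Per the labels and the study's methods, total RNA of whole lungs was sequenced, and the authors trimmed the reads with Trim Galore 0.4.0, mapped them to mm10 with TopHat 2.1.1 guided by mRNA coordinates, and made counts and normalized values with SeqMonk. What was deposited is log2 RPKM, in which the kilobases count introns and genes with no read hold 0.9 read. These values step by whole reads, and between 99.86% and 99.97% of those in a library fell within 0.02 of a whole number, so reads and the library totals used for scaling were recovered. In both E18.5 Wfdc2GFP/GFP libraries this total is larger than the mapped reads the study lists. The instruments were HiSeq2500 or GAIIx, and which library ran on which is not given in the sources used here. Limits of detection cover counting error only.

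The 10 genes and the pathway and marker lists were chosen with earlier results of these data known. The 15627 genes that reached a mean of 0.05 RPKM were fitted with limma 3.58.1 (R 4.3.3), 1 mean per group over all 8 libraries, 4 residual degrees of freedom and a trended prior. P-values are two-sided with Benjamini-Hochberg adjustment over all genes tested, and an adjusted p under 0.05 was called. With 2 libraries a group, the smallest p of an exact permutation test is 0.3333, so none was run. Besides the 10 genes, the text names from each list the genes called in a genotype comparison or the difference, up to 3 rises and 3 falls called across stages, and the 2 of highest mean RPM, and the 5 genes nearest in pattern to Hspa5 and Ddit3. Cebpg, Derl3, Slc7a3, Sec61b and Eif2ak3 lie outside this rule and were named after their values were seen. The markers named for groups without overlap, and those of their lists given beside them, lie outside it too. Exon lengths and overlaps came from GENCODE M21. Alternatives were pseudocounts, filters, scalings, a replicate block, groups compared alone, voom and leaving out each library.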

Additional observations from a re-analysis of the deposited data

Results flagged for a closer look

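The genotype effects of Ddit3 had opposite signs before and after birth: both Wfdc2GFP/GFP libraries were above both Wfdc2+/+ libraries at E18.5 and below them at P1.5. The difference between the effects was -1.85 (limma adjusted p = 0.338 in the test of the difference, with 0.153 the smallest over its alternatives). The stage effects of Chac1 had opposite signs in the genotypes, with both P1.5 libraries above both E18.5 libraries in Wfdc2+/+ and below them in Wfdc2GFP/GFP. The difference was -2.78 (limma adjusted p = 0.278, with 0.139 the smallest over its alternatives), and it was -0.94 with 1 RPKM added before the log.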

How the results depend on the processing

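For the 10 genes and 5 comparisons, 680 values were computed under alternatives, of which 612 kept their sign and side of the threshold, 66 changed sign and 2 passed the threshold. Of the 50 results, 21 never changed sign. Among them were Chac1 and Ddit3 at P1.5, in the difference and across birth in Wfdc2+/+, and Dnajb9 at either stage between genotypes. Several alternatives could not change a sign, so these counts do not measure how firm it is. The filters, the replicate block and the groups compared alone left each log2 fold change as first fitted. Leaving out a library cannot reverse the sign where groups do not overlap. The count of the 10 genes called stayed at 0 except across birth in Wfdc2+/+, where it ran from 0 to 2 with each library left out in turn. Where a fit left 1 library in a group, that library was assumed to vary like the other groups. Log2 fold changes that changed sign are given here. The cause was not tested.

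At P1.5, median centring gave 0.18 for Trib3 and 0.16 for Herpud1, and quantile normalization gave -0.26 for Hspa5, 0.16 for Trib3 and -0.078 for Sdf2l1. Leaving out each library gave -0.64 to 0.89 for Hspa5, -0.80 to 0.24 for Xbp1, -1.0035 to 0.96 for Trib3, -0.22 to 0.14 for Herpud1, -0.72 to 0.92 for Sdf2l1 and -0.60 to 0.11 for Asns. At E18.5, median centring gave -0.21 for Atf4, -0.14 for Trib3 and -0.042 for Herpud1, quantile normalization -0.18 for Trib3, and a pseudocount of 1 RPKM 0.0024 for Chac1. Leaving out each library gave -0.43 to 0.10 for Hspa5, -0.53 to 0.054 for Xbp1, -0.35 to 0.35 for Atf4, -0.55 to 0.70 for Trib3, -0.60 to 0.48 for Chac1, -0.26 to 0.60 for Herpud1 and -0.50 to 0.16 for Sdf2l1.

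For the difference between stages, median centring gave 0.37 for Xbp1, 0.32 for Trib3 and 0.20 for Herpud1, and quantile normalization -0.22 for Hspa5 and 0.34 for Trib3. Leaving out each library gave -0.47 to 1.05 for Hspa5, -0.56 to 0.48 for Xbp1, -1.08 to 0.89 for Trib3, -0.34 to 0.35 for Dnajb9, -0.64 to 0.22 for Herpud1, -0.55 to 1.09 for Sdf2l1 and -0.25 to 0.46 for Asns. Across birth in Wfdc2+/+ the same step gave -1.19 to 0.33 for Hspa5, -0.54 to 1.43 for Trib3 and -0.45 to 1.19 for Sdf2l1. Across birth in Wfdc2GFP/GFP, median centring gave 0.54 for Hspa5, 0.073 for Xbp1 and 0.071 for Dnajb9, quantile normalization -0.051 for Herpud1, and leaving out each library -0.41 to 0.13 for Hspa5, -0.26 to 0.38 for Ddit3, -0.28 to 0.98 for Trib3 and -0.17 to 0.70 for Herpud1.

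Same-numbered libraries correlated in their deviations at 0.23 between the E18.5 groups and 0.21 between the P1.5 groups. Outside the X and Y chromosomes these values were 0.17 and 0.19. Between stages the correlation was -0.02 within Wfdc2+/+ and -0.01 within Wfdc2GFP/GFP. It was 0.078 for E18.5 Wfdc2+/+ with P1.5 Wfdc2GFP/GFP and -0.29 for E18.5 Wfdc2GFP/GFP with P1.5 Wfdc2+/+. Fetuses and pups of different stages cannot be littermates, so the values between stages do not bear on litter pairs. Within a stage the correlations were positive, and number 1 marks females and number 2 males in every group. Shared litter and shared sex therefore cannot be told apart here. The numbers were not taken as pairs of animals in the main fit. The replicate block set the same effect of the number at both stages, so pairs within a stage were not tested. The paper calls the controls littermates, but which libraries share a litter is not given in the sources used here. With the replicate block, 0 of the 10 genes were called in any comparison, with smallest limma adjusted p = 0.287, 0.9997, 0.352, 0.218 and 0.0965 for the genotypes at P1.5, those at E18.5, the difference, and stage in Wfdc2+/+ and Wfdc2GFP/GFP. Of all genes, the block called 0, 0, 0, 0 and 125, against 2, 3, 0, 9 and 711 without it. The count across birth in Wfdc2GFP/GFP was 3036 with the groups alone, 1279 with median centring, 349 without the filter, 237 with a pseudocount of 1 RPKM, 129 with voom and 0 to 2449 leaving out each library, and without the filter the genotype counts were 21 at P1.5 and 22 at E18.5.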
